A study of Mus musculus with 12 samples.

Results

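The genes described here encode 10 receptor chains through which CD8+ T cells sense inflammatory cytokines. They are *Ifngr1* and *Ifngr2* for IFN-γ, *Ifnar1* and *Ifnar2* for type I interferon, *Il6ra* and *Il6st* for IL-6, *Il12rb1* and *Il12rb2* for IL-12, *Il18r1* for IL-18 and *Il27ra* for IL-27. The chains were chosen by gene symbol with earlier results of these data known, so counts of them are descriptions. All 10 were among the 25860 genes listed by RNA-seq and among the 14459 that passed a mean normalized count of at least 10. In chromatin, 29 of 23932 listed ATAC-seq peaks carried one of these symbols.

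Both assays addressed what loss of the chromatin regulator UTX does in autoreactive CD8+ progenitor (Tprog) cells from pancreatic lymph nodes. RNA-seq and ATAC-seq (which reads open chromatin from transposase insertions) each had 3 libraries per genotype. *NOD-TCR 8.3 WT* mice were the UTX-sufficient controls on the nonobese diabetic (NOD) strain that develops autoimmune diabetes. For the line without the receptor transgene the controls are described as floxed, Cre-negative littermates, and for this line it is not stated. *NOD-TCR 8.3 UTX TCD* mice combined floxed *Kdm6a*, the X-linked gene of UTX, with a Cre transgene under the T cell promoter *Lck*, and the alleles had been moved from B6 to NOD by backcrossing. Both genotypes share the 8.3 T cell receptor transgene (NY8.3), whose T cells recognize an IGRP peptide of the β cell, so a natural range of receptors was not sampled. *Lck*-driven Cre acts from thymic development onward and in all T cells, not in progenitors alone. The age of the mice used for these sorts is not given in the sources used here. The labels describe the sorted cells as positive for Ly108 and negative for CXCR6, whereas the study's methods name CD39 as the negative marker. The methods call the ATAC-seq samples biological replicates; for RNA-seq a figure legend gives the number per group but not whether each library came from a separate mouse, so p-values measure the spread between these samples.

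Cytokine receptors of this kind have no enzyme of their own in the chain that binds the ligand. Interferon, IL-6, IL-12 and IL-27 receptors bring Janus kinases together once the cytokine has bound, and these activate STAT transcription factors, whereas the IL-18 receptor signals through MyD88 and IRAK kinases. In CD8+ T cells, IL-12, IL-18 and the interferons act beside antigen and costimulation as inflammatory signals that shape effector differentiation, and IL-6 and IL-27 share the signalling chain gp130, encoded by *Il6st*.

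Counted reads numbered 146456724 in WT replicate 1, 144503203 in WT replicate 2 and 193568919 in WT replicate 3. For UTX TCD cells they numbered 61512402 in replicate 1, 175462433 in replicate 2 and 187275082 in replicate 3, so the first of these was the shallowest. The deepest and the shallowest library allowed 3 reads to stand for a normalized count of 2.29 and 6.75, which is far below the values of the 10 receptor chains. Some libraries stood apart from their group for single genes, UTX TCD replicate 3 for *Il18r1*, *Il18rap* and *Ifi44* and WT replicate 2 for *Il7r*, and values without them are given beside those genes or lists. Values below are normalized counts, the gene's reads divided by a size factor for the library, unless another scale is named.

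*Kdm6a* counted 28365, 28949 and 29172 in the WT libraries and 24158, 24792 and 24579 in the UTX TCD libraries. The groups did not overlap, and the *Kdm6a* difference was -0.23 on the log2 scale (limma, SE 0.04, adjusted p = 0.00114), inside the fold limit of 0.5 used for calls. A count over the whole gene cannot show the floxed exons apart from the rest of the transcript, so it is a weak check of the deletion. Of the 4 listed peaks with the name *Kdm6a*, all in intron 2 of 28, the log2 concentration differed by -0.82 to -0.42.

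Gene content fitted a CD8+ T cell sort. *Cd8a*, with the highest normalized count of the 7 CD8 T cell markers (length not considered, here and for the other marker lists), had a WT mean of 272155 and a UTX TCD mean of 298501, with SDs of 2012 and 23849 (n = 3 each). Of the sort and subset markers, *Slamf6* (Ly108) counted 27732, 34096 and 23305 in WT and 36665, 30980 and 35425 in UTX TCD libraries, and *Entpd1* (CD39) counted 4.42 to 29.6 over all 6 libraries. *Cxcr6*, the negative marker in the labels, counted 12757, 9619 and 13724 in WT and 5286, 5994 and 5695 in UTX TCD libraries, and it was the 1 of 8 sort and subset markers called (log2 fold change -1.07, adjusted p = 0.000131). The progenitor gene *Tcf7* and the lymph node homing gene *Ccr7* differed by log2 fold changes of -0.07 and -0.08, with adjusted p = 0.287 and 0.293. Without WT replicate 2, *Ccr7* was at -0.15 (limma, adjusted p = 0.0293), still inside the fold limit. *Cd44*, a marker of antigen experience, differed by 0.17 (adjusted p = 0.0322), and *Nkg7*, a granule gene of effector cells, by -0.46 (adjusted p = 0.00127), short of the fold limit but called without WT replicate 2 (-0.54).

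Other cell types left few reads, with exceptions that moved with genotype. Of 5 tested B cell markers, *Cd79b* was called lower (log2 fold change -1.98) and *Ms4a1* higher, the latter lost without WT replicate 1 (1.38), WT replicate 3 (1.60), UTX TCD replicate 2 (1.84) or UTX TCD replicate 3 (1.21). The 6 B cell genes summed to 2960, 2446 and 2810 in WT and 1233, 1094 and 1046 in UTX TCD libraries, and *Cd79b* had the highest count of them, with means of 2299 and 583. *Pax5*, a defining B cell gene, was at 0 to 11.1. The 4 CD4 and Treg markers summed to 518, 413 and 490 in WT and 391, 382 and 369 in UTX TCD libraries, with the highest count for *Foxp3* (means 275 and 283). *Zbtb7b* and *Cd4* were called lower there (-1.85 and -0.74), and the call on *Cd4* was lost without WT replicate 1 (-0.75), WT replicate 2 (-0.65), WT replicate 3 (-0.81), UTX TCD replicate 1 (-0.78) or UTX TCD replicate 3 (-0.54), and also with DESeq2, with no filter and with all libraries scaled to the same sum. *Cd40lg*, at -0.82, was called lower without UTX TCD replicate 2 (-1.02), with a pseudocount of 8 and with TMM scaling.

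The 4 NK cell markers summed to 13406, 15370 and 13193 in WT and 19118, 19097 and 26867 in UTX TCD libraries. Nearly all of that was *Eomes*, which CD8+ T cells also express and which was called higher (0.62, and 0.46 without UTX TCD replicate 3, which ended the call), while *Ncr1* was at 0 in 4 libraries and *Klra8* was at 0 in every WT library. The 4 stromal and endothelial markers summed to 31656, 29643 and 31800 in WT and 37531, 37676 and 33526 in UTX TCD libraries, led by *Pecam1*, which T cells carry too, and *Cdh5* was at 0 in every UTX TCD library. Myeloid markers summed to 612 to 1039 over the 6 libraries, led by *Cd68* (0.43, and called without UTX TCD replicate 2, at 0.57), with *S100a8* at 0 in every library and *Csf1r* called lower (-1.85). Dendritic cell markers (188 to 249, led by *Xcr1*) and erythroid markers (163 to 299, led by *Alas2*) held no called gene with limma, edgeR or DESeq2, and of their 4 tested genes 1 had an unadjusted p under 0.05. *Zbtb46*, a dendritic cell marker at 0.90, was called higher without WT replicate 1 (1.19), with a pseudocount of 8 and with all libraries scaled to the same sum. Of 7 CD8 T cell markers, which summed to 927508 to 1051802, limma called 0, as did edgeR and DESeq2, and 5 had an unadjusted p under 0.05. The part of other cells in the receptor results was not tested, and in sorted bulk RNA fewer cells with a transcript cannot be told apart from less transcript per cell.

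Among the receptor genes, 5 of 10 were called lower in UTX TCD cells, by a call rule that asks for a limma adjusted p below 0.05 and a log2 fold change beyond 0.5 in size. The same rule called 7.05% of all tested genes lower, 10.5% higher and 17.6% in either direction. For a higher level, limma, edgeR and DESeq2 each called 0 of the 10, and 8 of the 10 had an unadjusted p under 0.05 in either direction. The 5 called were *Il12rb1*, *Ifngr1*, *Il12rb2*, *Il6ra* and *Ifngr2*. In 8 of 10 genes the libraries of the genotypes did not overlap, against 51.9% of all tested genes. Over the 10 genes the median log2 fold change was -0.41, beside -0.0002 over all tested genes. Each call below is limma's, and an exact permutation of 3 against 3 libraries could not give a p below 0.10 for any single gene.

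**Figure D1:**
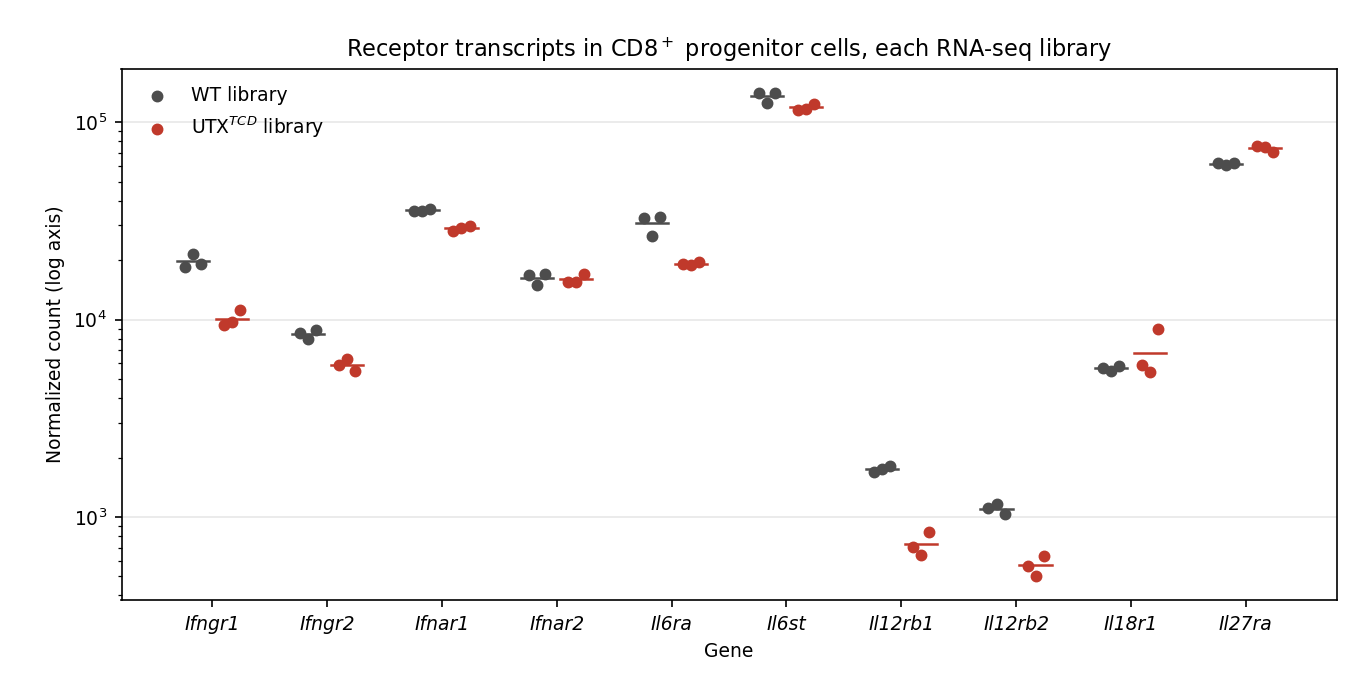
Normalized counts (log axis) of the 10 receptor genes in each RNA-seq library, with WT libraries in gray, UTX TCD libraries in red and a bar at each mean of 3 libraries. *Il12rb1* lay between 1694 and 1814 in WT and between 641 and 843 in UTX TCD libraries, while *Ifnar2* and *Il18r1* overlapped between the genotypes.

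The ligand-binding chain of the IFN-γ receptor, *Ifngr1*, counted 18521, 21610 and 19169 in WT and 9416, 9684 and 11133 in UTX TCD libraries. Every UTX TCD library lay below every WT library. The difference was a log2 fold change of -0.97 (SE 0.08, 95% interval -1.15 to -0.80, adjusted p = 2.14e-05), or -49.0% in percent. Its partner *Ifngr2*, which brings JAK2 to the complex, counted 8573, 8018 and 8883 in WT and 5896, 6330 and 5490 in UTX TCD libraries. Here too the groups stayed apart, although the gap was narrower. *Ifngr2* was called at -0.53 (SE 0.06, adjusted p = 0.000232), close to the fold limit, and fell inside it without WT replicate 3 (-0.49) or UTX TCD replicate 3 (-0.47) and with all libraries scaled to the same sum (-0.46). A fold limit of log2(1.5) in place of 0.5 also ended the *Ifngr2* call.

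The type I interferon receptor moved less. *Ifnar1*, whose chain binds TYK2, counted 35694, 35354 and 36502 in WT and 28216, 29159 and 29746 in UTX TCD libraries. These groups were apart, but the difference of -0.30 on the log2 scale (SE 0.04, adjusted p = 0.000377) was inside the fold limit. *Ifnar2*, the high-affinity chain, counted 16884, 14988 and 17124 in WT and 15453, 15443 and 17035 in UTX TCD libraries. The *Ifnar2* values were interleaved, and the estimate of -0.03 (95% interval -0.17 to 0.11, adjusted p = 0.730) turned to 0.03 when all libraries were scaled to the same sum and to 0.005 without WT replicate 3.

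For IL-6, *Il6ra* encodes the chain that binds the cytokine and *Il6st* the gp130 chain that signals. *Il6ra* counted 32741, 26639 and 33094 in WT and 19057, 19011 and 19526 in UTX TCD libraries. WT replicate 2 was the lowest of its group and still stood above all UTX TCD libraries, which were close to one another. *Il6ra* was called at -0.68 (SE 0.08, adjusted p = 0.000172). *Il6st* counted 140445, 125581 and 140289 in WT and 115862, 116984 and 123558 in UTX TCD libraries. The lowest WT and the highest UTX TCD library were near each other without crossing. At -0.19 (SE 0.06, adjusted p = 0.0285), *Il6st* was not called. Its adjusted p was 0.111 without WT replicate 1, 0.0938 without WT replicate 3, 0.0911 without UTX TCD replicate 1, 0.0936 without UTX TCD replicate 2 and 0.0808 with all libraries scaled to the same sum.

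IL-12 receptor transcripts were the scarcest of the 10 chains. *Il12rb1*, also a chain of the IL-23 receptor, counted 1694, 1751 and 1814 in WT and 706, 641 and 843 in UTX TCD libraries. *Il12rb2*, the chain through which STAT4 is recruited, counted 1112, 1161 and 1033 in WT and 567, 501 and 636 in UTX TCD libraries. For both chains the genotypes were widely apart. The log2 fold change of *Il12rb1* was -1.27 (SE 0.10, adjusted p = 2.70e-05), or -58.6% in percent, the largest of the 10 in size. For *Il12rb2* it was -0.96 (SE 0.11, adjusted p = 0.000156), or -48.6%. The fewest reads behind an *Il12rb2* value were the 252 of UTX TCD replicate 1.

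*Il18r1*, the ligand-binding chain for IL-18, counted 5698, 5487 and 5798 in WT and 5923, 5428 and 8953 in UTX TCD libraries. UTX TCD replicate 3 stood alone above the rest, and the other libraries were mixed. The log2 fold change of 0.22 (95% interval -0.13 to 0.57, adjusted p = 0.287) became 0.003 (adjusted p = 0.974) without that library. Without UTX TCD replicate 2 instead, the *Il18r1* estimate was 0.36 (adjusted p = 0.0935). The signalling partner *Il18rap*, which lies next to *Il18r1* on chromosome 1, counted 364, 354 and 355 in WT and 362, 354 and 581 in UTX TCD libraries. UTX TCD replicate 3 was again the high one.

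*Il27ra*, the chain particular to the IL-27 receptor, counted 62167, 60798 and 62251 in WT and 75730, 74714 and 70640 in UTX TCD libraries. All UTX TCD values were above all WT values, yet the log2 fold change of 0.25 (SE 0.04, 95% interval 0.16 to 0.35, adjusted p = 0.00165) stayed below the fold limit, so the gene was not called.

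To compare levels between genes, normalized counts were divided by the length of each gene's merged exons. Per kb, *Il27ra* was the most abundant receptor gene with a WT mean of 17665 and a UTX TCD mean of 21086 (SDs 233 and 771, n = 3 each). *Il6st* came next at 12203 ± 769 and 10704 ± 375 per kb (SD, n = 3 each). In WT the order went on with *Ifngr1* (6943 per kb), *Ifnar1* (6035), *Ifnar2* (4906), *Il6ra* (3567), *Ifngr2* (2254), *Il18r1* (1175), *Il12rb1* (427) and *Il12rb2* (290). All neighbours in the WT order were separated in their 3 values. In UTX TCD cells *Ifngr1* stood behind *Ifnar1* and *Ifnar2*, at 3540 per kb against 4889 and 4799. The rest of the order was that of WT, but the values of *Ifnar1* and *Ifnar2*, of *Ifngr2* (1568) and *Il18r1* (1405), and of *Il12rb1* (178) and *Il12rb2* (150) overlapped there. *Il18rap*, at 53.0 per kb in WT and 64.0 in UTX TCD cells, was far below its partner.

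Chains of a receptor were next set against each other within each library, a ratio that library scaling does not touch. For *Ifngr1* over *Ifngr2* the log2 ratio was 1.11, 1.43 and 1.11 in WT and 0.68, 0.61 and 1.02 in UTX TCD libraries. For *Il6ra* over *Il6st* it was -2.10, -2.24 and -2.08 in WT and -2.60, -2.62 and -2.66 in UTX TCD libraries. In both receptors the balance in UTX TCD libraries lay further toward the signalling partner, without overlap. The mean log2 ratio differed by -0.45 for *Ifngr1* over *Ifngr2*, -0.27 for *Ifnar1* over *Ifnar2*, -0.49 for *Il6ra* over *Il6st* and -0.31 for *Il12rb1* over *Il12rb2*. For *Il27ra* over *Il6st*, the chains of the IL-27 receptor, it differed by 0.44. In these 5 ratios the genotypes did not overlap. Single genes showed no overlap in 51.9% of all tested, and no such share was taken over other gene pairs. Each of the 5 had an exact two-sided permutation p of 0.10, the smallest that 3 against 3 libraries allow, and an adjusted p of 0.12 over 6 ratios. The ratio differences follow from the fold changes of the single genes given above, so they are not separate evidence. *Il18r1* over *Il18rap* differed by -0.01 (exact permutation p = 0.60), with every library between 3.94 and 4.03, UTX TCD replicate 3 included.

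**Figure D2:**
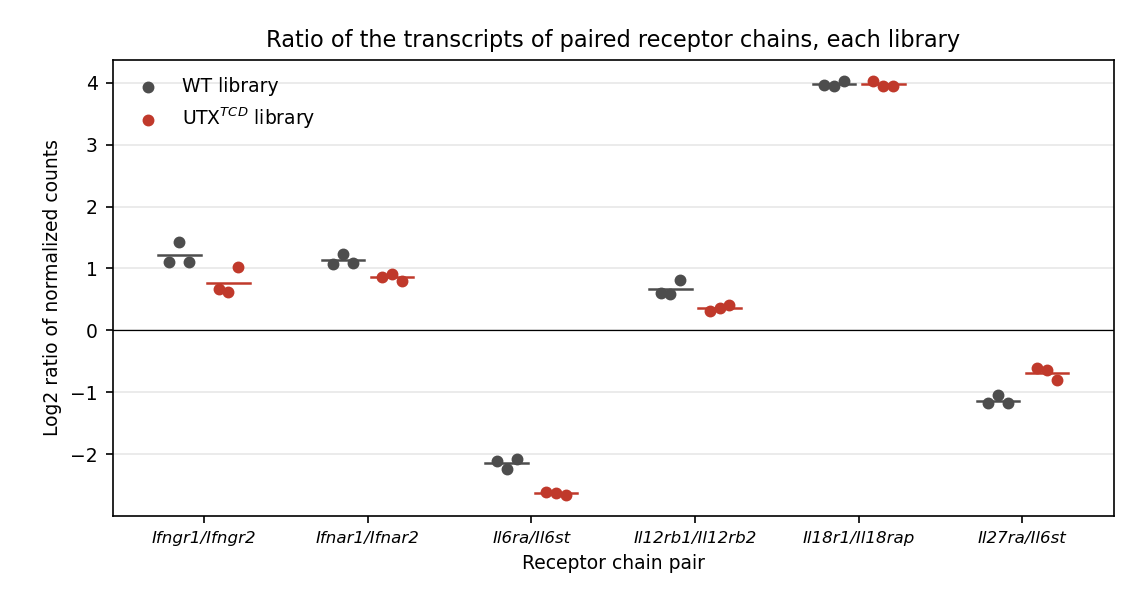
Log2 ratio of the normalized counts of the chains of each receptor in every RNA-seq library, with WT in gray, UTX TCD in red and a bar at each mean of 3 libraries. The *Il18r1* to *Il18rap* ratio lay between 3.94 and 4.03 in all libraries, whereas the other 5 ratios did not overlap between the genotypes.

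Chromatin accessibility is available as the authors' mean log2 concentration of each listed peak per genotype, with no spread over libraries. Every listed peak had an FDR under 0.05 in the authors' comparison, so peaks above that are not part of the list. The study's methods also ask for a log2 difference over 0.5 in size. Of the 29 receptor peaks, 18 differed by over 0.5 in the group means, as did 73.1% of all listed peaks. Of the 10 receptor genes, 7 had at least 1 listed peak, compared with 47.6% of all tested genes, and *Ifnar1*, *Ifnar2* and *Il18r1* had none. Of their 29 peaks, 20 were less accessible and 9 more accessible in UTX TCD cells, while 31.2% of all listed peaks were less accessible. By the authors' annotation 14 of the 29 lay in introns, 11 between genes, 3 at promoters and 1 in an exon.

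*Ifngr1* had 5 listed peaks (GRCm38, the build also called mm10), all less accessible in UTX TCD cells. They ran from a promoter peak 0.098 kb before the start site (chr10:19591651-19592051), with concentrations of 12.27 in WT and 12.03 in UTX TCD cells, to an intergenic peak 19.5 kb before it (chr10:19572203-19572603), with 6.22 and 4.99. The latter had the largest difference at *Ifngr1*, -1.23 on the log2 scale. The others differed by -0.38, -0.73 and, in intron 1 of 6, -0.74. *Ifngr2* had 1 listed peak, in intron 1 of 6 (chr16:91553705-91554105), and it went the other way from the transcript, from 10.08 in WT to 10.40 in UTX TCD cells.

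At *Il6ra* all 6 listed peaks were less accessible, 5 in introns and 1 in exon 2 of 10. The peak with the largest difference of the 29, -1.99, lay in intron 7 of 9 (chr3:89877906-89878306), where the concentration was 8.03 in WT and 6.04 in UTX TCD cells. Nearer the start site the differences were smaller, -0.42 at 1.88 kb and -0.30 at 4.13 kb. As many listed peaks as at *Il6ra*, or more, were found at 3.72% of tested genes.

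*Il6st* had 10 listed peaks, 6 more accessible and 4 less accessible, a number reached by 0.98% of tested genes. All 3 peaks in introns were more accessible, with 0.56 in intron 1 of 16, 1.14 in intron 2 (chr13:112474351-112474751, from 8.79 to 9.93) and 0.88 in intron 8. The promoter peak (chr13:112463853-112464253) differed by -0.25. Upstream, an intergenic peak 31.8 kb before the start site (chr13:112432042-112432442) showed the largest difference at *Il6st*, -1.83, close to an intergenic peak (chr13:112433291-112433691) that differed by 0.50. Directions at *Il6st* were thus mixed within the locus.

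Both listed peaks of *Il12rb1* lay between genes before the start site and were less accessible, by -0.54 at 1.69 kb (chr8:70806563-70806963) and -0.38 at 3.40 kb. *Il12rb2* had 4 listed peaks. Its promoter peak (chr6:67376046-67376446) went from 10.02 in WT to 9.47 in UTX TCD cells, a difference of -0.55, beside -0.73 in intron 1 of 15 and 0.45 in intron 7 of 15. The largest difference, -1.46, belonged to a peak 48.8 kb before the start site (chr6:67424805-67425205), which lies in intron 10 of 10 of the neighbouring *Il23r* transcript named by the annotation. *Il27ra* had 1 listed peak, in intron 6 of 13 (chr8:84039064-84039464), more accessible by 0.31. *Il18rap* had 2 more accessible peaks, 0.66 at its promoter and 1.44 in intron 3 of 12, although its neighbour *Il18r1* had none.

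**Figure D3:**
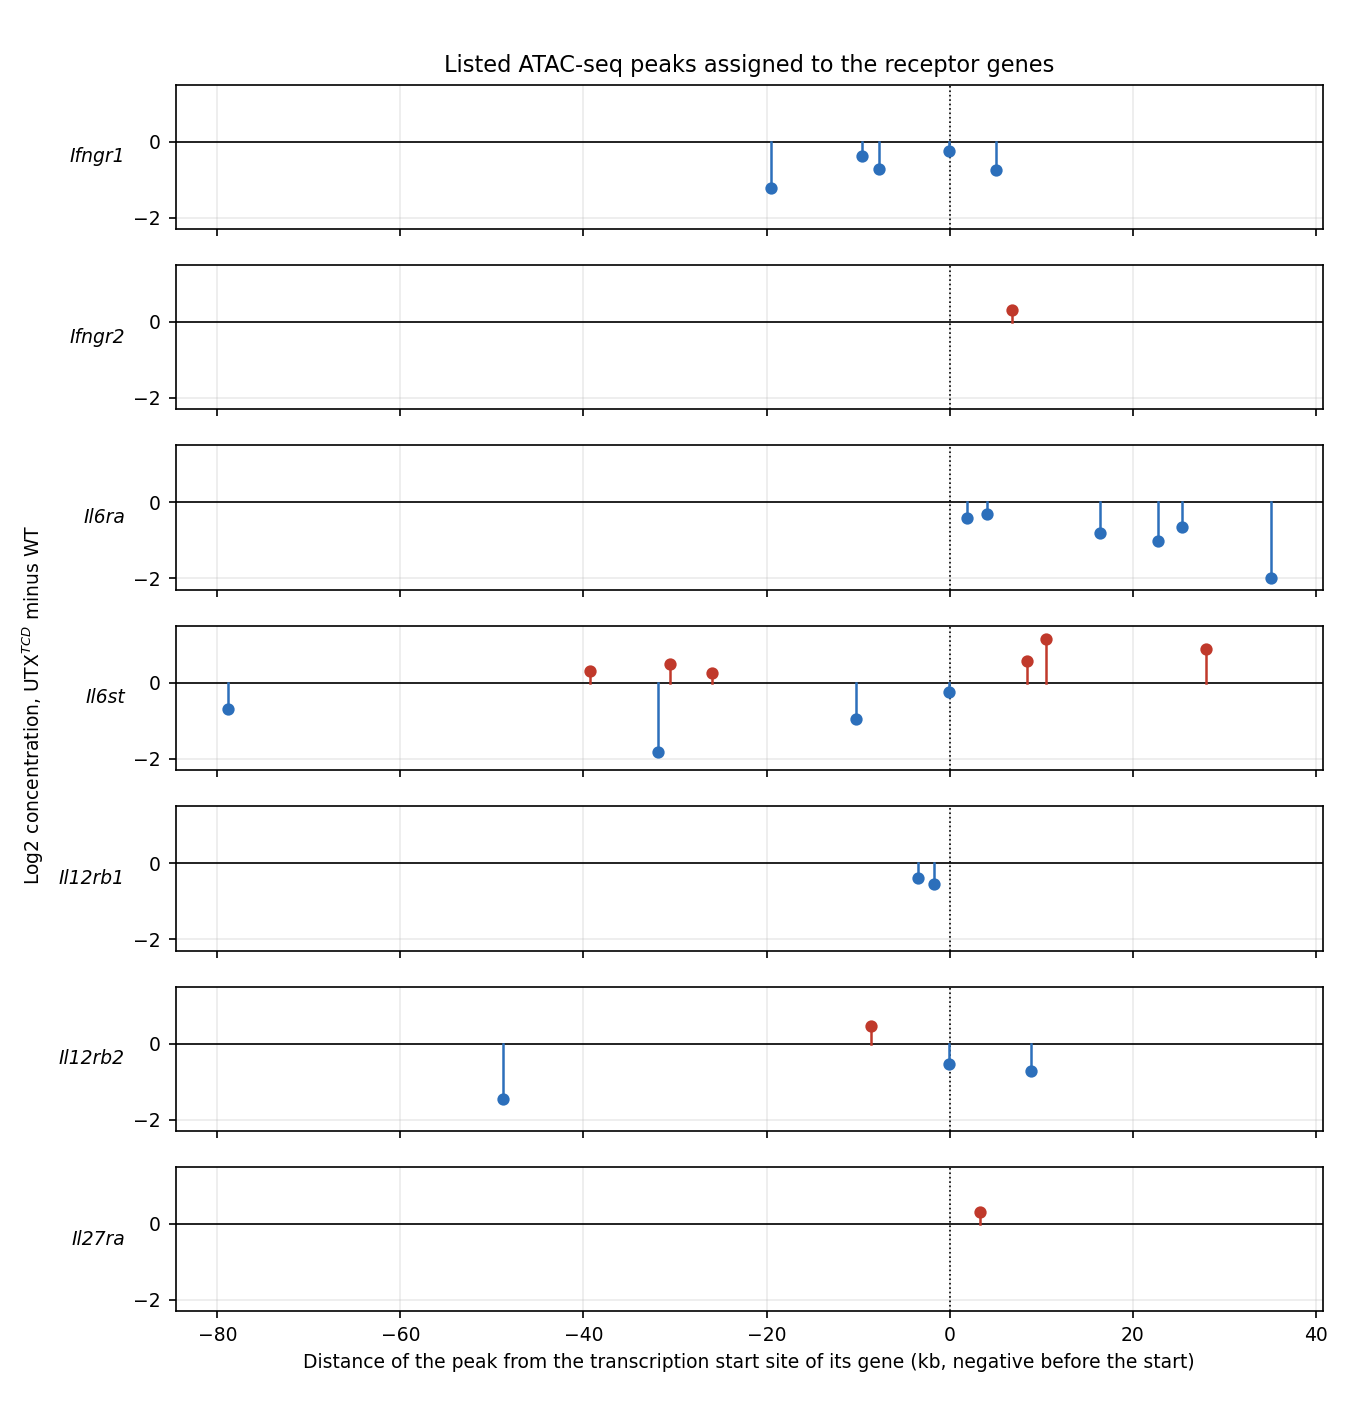
Difference of the authors' mean log2 concentration (UTX TCD minus WT) for each of the 29 listed ATAC-seq peaks, by distance in kb from the start site that the deposited annotation used, with less accessible peaks in blue and more accessible peaks in red. All 5 peaks of *Ifngr1* and all 6 of *Il6ra* lie below 0, and *Il6st* has 6 above and 4 below.

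Assignment by the nearest start site can give a peak inside a receptor gene to its neighbour. Taken by position instead, with the gene body and 5 kb on each side, 27 listed peaks were found, 18 of them less accessible. This added peaks of -0.75 and -1.75 after *Ifngr1* that carry the name *Il22ra2*, peaks of -1.21 and -0.26 at the end of *Il6ra* named *She*, a peak of -0.52 after *Ifnar2* named *Il10rb*, and 3 peaks near the end of *Il27ra* named *Palm3*, all more accessible (0.37 to 1.30). *Ifnar2*, *Il10rb*, *Ifnar1* and *Ifngr2* neighbour one another on chromosome 16, from 91372783 to 91565623, and *Il10rb*, the shared chain of the IL-10 family receptors, had a log2 fold change of -0.47 (adjusted p = 5.43e-05), also short of the fold limit.

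Promoters and listed peaks were searched for letters that factors of these pathways and of progenitor cells bind. RefSeq promoter sequences of GRCm38.p6, from 250 bases before to 50 after a start site, were given for 8 of the 10 genes (10 entries, 3 of them for *Il18r1*), and not for *Il12rb1* and *Il27ra*. The letters TTCNNNGAA, a pattern that STAT proteins bind and that reads alike on both strands, occurred in promoters of *Ifnar1*, *Ifnar2*, *Il12rb2* and *Il18r1*, 4 of the 8 genes and 4 of their 10 entries, and in 8.30% of 32851 promoter entries. An interferon response pattern, GAAANNGAA, and a TCF/LEF pattern, CTTTGAA or CTTTGTT, were searched on both strands and found in the promoters of 0 of the 8, against 8.56% and 10.6% of all entries. A match describes letters only, and the reference is the C57BL/6J genome rather than that of NOD mice.

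Promoter bases before the start site are shown for the called genes with a promoter peak, *Ifngr1* (chr10:19591699-19591948, plus strand) and *Il12rb2* (chr6:67376189-67376438, minus strand), both GRCm38.p6, with matches in capitals. In *Il12rb2* the capitals mark TTCNNNGAA, which starts 123 bases before the start site, and the *Ifngr1* stretch has no match to any of the patterns.
*Ifngr1* promoter: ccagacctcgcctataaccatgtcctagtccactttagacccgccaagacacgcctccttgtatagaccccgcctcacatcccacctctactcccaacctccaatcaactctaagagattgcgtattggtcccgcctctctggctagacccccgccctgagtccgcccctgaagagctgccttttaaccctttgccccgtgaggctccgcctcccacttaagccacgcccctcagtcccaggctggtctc
*Il12rb2* promoter: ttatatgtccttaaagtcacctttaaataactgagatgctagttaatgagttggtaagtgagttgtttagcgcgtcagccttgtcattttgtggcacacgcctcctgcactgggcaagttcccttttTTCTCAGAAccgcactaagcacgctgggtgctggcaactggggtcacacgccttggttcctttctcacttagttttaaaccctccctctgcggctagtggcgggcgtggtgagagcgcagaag

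Within the 26 listed peaks of *Ifngr1*, *Ifngr2*, *Il6ra*, *Il6st* and *Il12rb2*, TTCNNNGAA occurred in 3, GAAANNGAA in 1 and the TCF/LEF pattern in 4. Among 23905 listed peaks of the same width the shares were 11.9%, 13.6% and 20.9%. The middle 300 bases (plus strand, GRCm38.p6) are shown for 3 peaks. The first is the less accessible *Ifngr1* peak 7.67 kb before the start site (chr10:19584134-19584433), the only one of the 26 with matches to both the interferon response and the TCF/LEF pattern. Both matches are on the minus strand, so the capitals read TTCAAAG and TTCCCTTTC, and they do not overlap. The other sequences are the middle of the *Il6ra* peak that lost the most (chr3:89877956-89878255) and of the *Il6st* peak that gained the most (chr13:112474401-112474700), neither of which has a match.
*Ifngr1* peak: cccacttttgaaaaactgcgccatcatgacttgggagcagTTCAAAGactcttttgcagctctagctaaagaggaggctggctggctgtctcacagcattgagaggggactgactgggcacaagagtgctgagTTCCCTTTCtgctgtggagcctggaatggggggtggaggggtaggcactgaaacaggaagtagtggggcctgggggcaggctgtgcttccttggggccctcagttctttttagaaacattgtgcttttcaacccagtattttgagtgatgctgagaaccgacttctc
*Il6ra* peak: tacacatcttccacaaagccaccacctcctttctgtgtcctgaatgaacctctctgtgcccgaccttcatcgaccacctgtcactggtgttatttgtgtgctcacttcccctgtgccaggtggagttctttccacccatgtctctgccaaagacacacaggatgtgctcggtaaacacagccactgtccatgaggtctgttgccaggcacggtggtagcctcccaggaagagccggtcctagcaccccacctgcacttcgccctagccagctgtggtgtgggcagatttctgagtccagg
*Il6st* peak: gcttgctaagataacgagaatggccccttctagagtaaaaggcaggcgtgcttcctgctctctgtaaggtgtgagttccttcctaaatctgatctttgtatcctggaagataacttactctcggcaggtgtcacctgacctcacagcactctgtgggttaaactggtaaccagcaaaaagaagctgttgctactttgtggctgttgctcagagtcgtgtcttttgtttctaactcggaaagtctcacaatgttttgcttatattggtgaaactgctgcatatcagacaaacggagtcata

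Other receptors of inflammatory cytokines were counted in the same way. For this and every later list, the shares to compare are 10.5% of all tested genes called higher and 7.05% called lower. Of 18 other inflammatory cytokine receptor genes, 13 were tested, 1 was called lower and 2 higher, with a median log2 fold change of 0.11 (0.001 without UTX TCD replicate 3). *Tnfrsf1b*, the second TNF receptor, counted 10808, 10874 and 10813 in WT and 4202, 4217 and 4814 in UTX TCD libraries. This was a wide and regular gap (log2 fold change -1.30, adjusted p = 8.43e-07), and all 6 of its listed peaks were less accessible. Without UTX TCD replicate 3, *Il10ra* of the IL-10 receptor was called lower as well (-0.82, beside -0.51 with all libraries). *Lifr*, the receptor chain for LIF, was called higher from a low level, with means of 10.8 and 44.7 (1.88, adjusted p = 0.0107). *Il23r* averaged 5.15 and 26.1 (1.96, adjusted p = 0.0468), with 53.1 in UTX TCD replicate 3 alone, and its call was lost without WT replicate 1 (1.52), WT replicate 3 (1.97) or UTX TCD replicate 1 (2.13), while without UTX TCD replicate 3 it no longer passed the filter. A pseudocount of 8, no filter on low counts and the replicate block each ended the *Il23r* call too.

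Receptors that use the common gamma chain, which answer IL-2, IL-4, IL-7 and related growth cytokines, served as a comparison. Of 7 tested, 2 were called higher and, with limma, edgeR or DESeq2, 0 lower, while 4 had an unadjusted p under 0.05, and their median was 0.21. *Il2rb* (38957 ± 2092 in WT, 60166 ± 2973 in UTX TCD cells, SD, n = 3 each) and *Il4ra* (27477 ± 1685 and 43490 ± 3094, SD, n = 3 each) were the genes called, at 0.63 and 0.66. *Il7r*, named after its values were seen, counted 79127 in WT replicate 2 but 37105 to 40509 in the other 5 libraries, so that its log2 fold change went from -0.29 to 0.07 without that library.

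Of 15 genes for ligands of these receptors, 5 passed the filter. *Lif*, which acts through gp130, was the ligand called, higher at 2.39 (means 18.9 and 106, adjusted p = 0.0014). *Clcf1* had the highest count of the ligands (means 7223 and 5619), and *Ifng* counted 6.75 to 32.8.

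Kinases and adaptors below the receptors differed little in transcript level. Among 10 JAK and STAT genes, *Stat2* was called higher (0.91, adjusted p = 3.53e-05), and the list's median was 0.10. Of 12 IL-18 signalling genes limma called 0, as did edgeR and DESeq2, 4 had an unadjusted p under 0.05, and the median was 0.03. Among 18 genes of feedback and receptor shedding, 4 were called higher and the median was 0.01. The largest increases there were of *Usp18*, a brake on IFNAR signalling (1.89, adjusted p = 1.51e-05), and *Cish*, a STAT5-induced SOCS family member (1.64, adjusted p = 3.92e-06). *Socs1* and *Socs3*, inhibitors of interferon and gp130 signalling, were the other genes called, at 0.66 and 0.76.

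Target genes were counted by pathway. Of 17 tested type I interferon targets, 16 were called higher, with a median of 1.71. *Ifi44* counted 38.6, 45.4 and 28.2 in WT and 319, 362 and 1106 in UTX TCD libraries (log2 fold change 3.74, adjusted p = 0.000175). UTX TCD replicate 3 had the highest value, and all UTX TCD values were above those of WT. *Mx1*, an antiviral GTPase, counted 2231, 1886 and 2316 in WT and 20089, 21094 and 15949 in UTX TCD libraries (3.15, adjusted p = 1.83e-07). Here UTX TCD replicate 3 was the lowest of its group, and without it 16 targets were again called, with a median of 1.76. *Ifnar1* and *Ifnar2*, the receptor of this pathway, were not called in either direction.

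Near the share of all tested genes (10.5%), 2 of 19 tested IFN-γ targets were called higher, with a median of 0.31. These were the chemokine gene *Cxcl10* (1.80, adjusted p = 0.000669) and the GTPase gene *Irgm1* (0.53), whose call was lost without WT replicate 2 (0.48), UTX TCD replicate 1 (0.49) or UTX TCD replicate 2 (0.49). *Irgm2*, at 0.47, was called without WT replicate 1 (0.50), without UTX TCD replicate 3 (0.58) or with all libraries scaled to the same sum, and *Irf8*, at 0.46, without WT replicate 2 (0.63) or UTX TCD replicate 1 (0.58). Several IFN-γ targets also respond to type I interferon. For lower levels, limma, edgeR and DESeq2 called 0 of the 19, against 7.05% of all tested genes with limma. In either direction, 11 of the 19 had an unadjusted limma p under 0.05. Both chains of the IFN-γ receptor were lower, and a link between receptor and target levels was not tested.

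Among 11 tested STAT4 and IL-18 targets, *Tbx21* (T-bet) was called higher at 1.16 (adjusted p = 0.00057) and *Gadd45g* at 0.73, and *Ccl5* was called lower at -1.34 (adjusted p = 0.0325). *Ccl5* counted 685, 1089 and 631 in WT and 227, 190 and 672 in UTX TCD libraries. The groups overlapped through UTX TCD replicate 3. *Gzmb*, the granzyme B gene, at -0.47, was called lower without WT replicate 2 (-0.61). Neither edgeR nor DESeq2 called *Ccl5*, and its call was lost without WT replicate 1 (-1.43), WT replicate 2 (-1.10), UTX TCD replicate 1 (-1.12) or UTX TCD replicate 2 (-0.99). The *Gadd45g* call was lost without WT replicate 1 (0.52), WT replicate 3 (0.73) or UTX TCD replicate 3 (0.58). Of 11 tested STAT3 targets, 2 were called in each direction. *Maf* rose by 2.76 (adjusted p = 5.07e-07) and *Socs3* by 0.76, while *Fos* was lower at -0.59 and *Pim1* at -0.54, the last lost without UTX TCD replicate 1 (-0.43) or UTX TCD replicate 2 (-0.45) and with all libraries scaled to the same sum.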

How the data were processed

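RNA-seq and ATAC-seq were compared between WT and UTX TCD Tprog cells, 3 libraries each, grouped by the labels. The authors aligned RNA reads to mm10 with HISAT2 2.2.1, counted them per gene with featureCounts and deposited a signal per gene, the count divided by a DESeq2 size factor; strand setting and gene annotation are not given in the sources used here. Values of all 6 libraries are whole multiples of 1 step (100% within 0.05 of a whole read), which gave counted reads. In WT replicate 1 that step is 0.9906, too near 1 for an automatic check to tell it from rounding, so the count tests served as alternatives only. The authors aligned ATAC reads with Bowtie2, called peaks with MACS2, compared genotypes with DiffBind and annotated peaks with HOMER; a shift for the transposase is not stated. The deposited log2 concentrations are group means. The deposited p-value columns, like the fold changes of both tables and their errors, hold the authors' comparison and were not used, except that the FDR column was read to establish that every peak is under 0.05.

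Log2(normalized count + 1) was tested with limma 3.58.1 (lmFit, eBayes with trend, R 4.3.3) over genes with a mean of at least 10, with Benjamini-Hochberg adjustment, tested on simulated data. A log2 fold change is UTX TCD minus WT on this scale, which understates changes of low genes. On recovered reads, edgeR 4.0.16 called 2541 genes and DESeq2 1.42.0 called 2422, beside 2538 with limma. Exon lengths came from GENCODE vM21 and promoters from RefSeq, both GRCm38, the build of mm10. Peak differences are WT subtracted from UTX TCD. The members and gene lists were chosen with earlier results of these data known. Genes named are the receptor chains, *Kdm6a*, most sort and subset markers, the 2 largest called increases and decreases of each list, the gene with the highest count of each marker list and the peak with the largest difference of each receptor gene, and others are named where a count, a defining marker at or near 0 or a neighbouring peak needed them, after their values were seen. *Ddx58* and *Hbb-bt* are not among the symbols of the RNA table. Alternatives covered the pseudocount, filter, scaling, test, replicate block, fold limit, each library left out, peak limits and promoter window.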

Additional observations from a re-analysis of the deposited data

How the results depend on the processing

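Of 150 alternative estimates of the 10 receptor genes' log2 fold changes, 145 kept their direction and their call or lack of one. *Ifngr2* lost its call in 3, with all libraries scaled to the same sum (-0.46), without WT replicate 3 (-0.49) and without UTX TCD replicate 3 (-0.47). *Ifnar2*, not called at any setting, changed sign in 2, to 0.0317 with the same sum and, over the libraries left out, from -0.0914 to 0.0047. *Il6st*, inside the fold limit throughout, had adjusted p from 0.00599 to 0.111 over the libraries left out and 0.0808 with the same sum. The *Il18r1* to *Il18rap* ratio ran from -0.0412 to 0.0108 when libraries were left out. The causes were not tested, beyond the fewer samples.

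Without the fold limit, 5887 genes were called in place of 2538, 8 of the 10 receptor genes in place of 5, and 63 genes of the pathway lists in place of 34. With a fold limit of log2(1.5), 4 receptor genes were called, and *Ifngr2* was not among them. Other alternatives kept these counts within 1.5 times. With each library left out they ranged from 2162 to 2572 genes, 4 to 5 receptor genes and 31 to 34 list genes. Scaling to the same sum moved the median log2 fold change of all genes to 0.06, and called 1727 genes higher and 851 lower in place of 1518 and 1020. With the replicate block, 2474 genes, 5 receptor genes and 33 list genes were called, and the call on *Il23r* was lost. Same-numbered libraries did not regularly deviate together (r = 0.31, -0.20 and 0.09 across genes). WT replicate 3 correlated more with UTX TCD replicate 2 (r = 0.29) than with its own number. The replicate block thus rests on the numbers alone, and not each library correlated best with its own number.

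Of the 29 peaks, 18 differed by over 0.5 on the log2 scale and 14 of the 20 less accessible ones did; 3 had promoter annotation, all 3 less accessible, as were 14.7% of all listed promoter peaks; 28 lay within 50 kb. Peaks by position were an alternative chosen after seeing the data. In the first 200 bases of the promoters, 3 genes in place of 4 had TTCNNNGAA, and the other patterns had 0 at both settings. Levels without length give no order between genes. The planned description of the receptor proteins was not run. Groups of 3, peak means without spread, a reference of another strain and a gene-level count for a floxed gene limit these values.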
